A study of Mus musculus with 24 samples.

Results

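Homologous recombination repairs double-strand DNA breaks, and 9 of its genes were followed here in mouse cells exposed to KBrO3, to BPA or to both. The genes were Mre11a, Rad50, Nbn, Brca1, Brca2, Rad52, Rad54l, Xrcc2 and Xrcc3, found by the gene names that the scanner files give their probes. Together they had 21 of the 41174 different probes on the array, and each gene was described by its brightest probe over all 24 arrays. The cells were immortalized mouse embryonic fibroblasts (MEFs) with genotype Ku70-/-, and all groups, controls included, shared this deletion of Xrcc6, the gene for a subunit of the Ku heterodimer used in end joining.

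Agilent 1-colour whole-genome arrays measured 8 groups of 3 arrays in 2 sets. The first set of 15 arrays held untreated cells, cells given 20 mM KBrO3 for 1 hr and left to repair for 3 hr or 23 hr (KBrO3 4 hr and KBrO3 24 hr), and cells co-exposed to 150 µM BPA for 1 hr before, during and after the same KBrO3 exposure (BPA + KBrO3 4 hr and BPA + KBrO3 24 hr). The second set of 9 arrays held untreated cells and cells kept in 150 µM BPA (BPA 4 hr and BPA 24 hr). GEO's labels give 4 or 24 hr in BPA for these cells, whereas the study's methods give an hour longer for each, and the labels' names are kept here. KBrO3 is an oxidant that damages DNA bases and can give strand breaks, and BPA (bisphenol A) is a plastics monomer with hormone-like activity. The control arrays of the first set carry a label with the number 4, and none was labelled as 24 hr. Both times were therefore compared with the same 3 arrays, and at 24 hr exposure and time in culture cannot be told apart. The study's methods call the 3 samples of a condition biological replicates, while the labels only number them.

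Values are the processed signal of a probe on the log2 scale minus the 75th percentile of its array, called the normalized log2 signal, in which a difference of 1 is a 2-fold change. They were compared between groups for the same probe and never between probes. A gene was called altered when its adjusted p (limma, Benjamini-Hochberg over all probes tested in the set) was below 0.05. All 9 genes were well above background on every array. The spread between arrays of a group differed between the sets, with a median SD over the tested probes of 0.107 for the 15 arrays and 0.34 for the 9. Below, differences between groups of 3 arrays are limma's log2 differences ± SE.

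Each set lay on 5 slides, which the groups did not share evenly. KBrO3 4 hr and 1 control array shared a slide, but the other 3 groups of the first set shared none with the controls, and there the effects of slide and of exposure cannot be told apart. The same holds between KBrO3 and BPA + KBrO3 at 4 hr, whereas at 24 hr these 2 groups shared a slide. Xrcc6 itself gave a signal well above background on all 24 arrays, from −0.60 to 0.73. The place of its probe relative to the deletion is not given in the sources used here, and the genotype was therefore not checked by it. Of 8 fibroblast markers 7 were well above background on all 24 arrays, and the other, Thy1, on 19. Their summed level on the log2 scale was 10.54 to 10.63 in the controls, 10.43 to 10.52 at KBrO3 4 hr, 9.99 to 10.05 at BPA + KBrO3 4 hr, 9.35 to 9.53 at KBrO3 24 hr and 8.78 to 9.02 at BPA + KBrO3 24 hr. Of the 4 macrophage, 4 endothelial, 4 epithelial and 5 skeletal muscle markers, 1, 2, 0 and 1 were well above background on all 24. These were Cd68, then Kdr and Tek, and Acta1, while Ptprc, Pecam1 and Des were so on none. Among the rest, Csf1r and Myod1 were so on 10 arrays of the first set and all 9 of the second. In the same order, the counts were 11 and 9 for Krt18, 5 and 9 for Krt8, and 4 and 9 for Myog and Myh1. They were 1 and 6 for Adgre1, 1 and 2 for Epcam, 0 and 8 for Cdh5 and 0 and 9 for Cdh1. The summed level of the macrophage markers was −2.76 to −2.39 in the controls, −0.68 to −0.57 at KBrO3 4 hr, −1.12 to −1.10 at BPA + KBrO3 4 hr, −1.74 to −1.60 at KBrO3 24 hr and −1.29 to −1.001 at BPA + KBrO3 24 hr. That of the muscle markers was −1.07 to −0.74, −1.09 to −0.77, −0.56 to −0.28, −2.04 to −1.66 and −3.54 to −2.37 in the same order. The part of these shifts in the results was not tested. In RNA from whole cultures, fewer cells of a kind and less RNA per cell cannot be told apart.

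Repair by homologous recombination starts when the MRN complex of MRE11, RAD50 and NBN binds a break and trims its ends, and BRCA1 favours this trimming. BRCA2, XRCC2 and XRCC3 then prepare the exposed strand for exchange, while RAD52 anneals complementary strands and RAD54 (from Rad54l) helps the strand invade the intact copy. The pathway works mainly in S and G2 phase, and in cells without Ku breaks cannot take the classical end-joining route.

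The measurements rest on 60-base probes, and 4 of them are shown, those of the MRN complex, described below subunit by subunit, and of Rad54l, the gene that differed most between the 2 times. The Mre11a probe A_51_P446678 lies at chr9:14668414-14669363, plus strand, the Rad50 probe A_51_P367220 at chr11:53608997-53609056, minus strand, the Nbn probe A_51_P309328 at chr4:15916258-15919585, plus strand, and the Rad54l probe A_51_P108767 at chr4:115474940-115474999, minus strand, all in the mm7 build that the headers of the first set name. The Mre11a and Nbn probes span 950 and 3328 bases of the genome with only 60 bases of sequence, so that their coordinates take in sequence that the probe itself does not hold. They are written 5′ to 3′ as the scanner files list them, in lower case since the whole probe hybridises.
Mre11a: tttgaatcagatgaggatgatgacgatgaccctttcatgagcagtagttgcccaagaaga
Rad50: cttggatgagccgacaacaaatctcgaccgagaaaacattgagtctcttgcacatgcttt
Nbn: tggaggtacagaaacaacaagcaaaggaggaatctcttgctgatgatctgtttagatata
Rad54l: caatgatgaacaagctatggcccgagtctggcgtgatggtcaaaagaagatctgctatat

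The other representative probes were read at these mm7 positions: Brca1 A_51_P475523 at chr11:101598134-101598193, minus strand, Brca2 A_51_P451106 at chr5:149502735-149502794, plus strand, Rad52 A_51_P105017 at chr6:119947822-119947881, plus strand, Xrcc2 A_52_P197772 at chr5:24731553-24731612, minus strand, and Xrcc3 A_51_P197043 at chr12:109328153-109328212, minus strand.

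KBrO3 alone was compared with control first. At 4 hr, 5 of the 9 genes were lower than control (Rad50, Brca2, Rad54l, Xrcc3 and, by its brightest probe but not by A_52_P662752, Xrcc2), 2 were higher (Nbn and Brca1), and Mre11a and Rad52 did not pass the test. Over all 27310 probes tested, 35.8% were lower and 36.3% higher, so that a call in either direction was common on these arrays. At 24 hr, 7 of the 9 were higher than control, with 32.1% of all probes higher, and only Brca2 was lower, with 34.0% of all probes lower. With BPA present, 5 genes were again lower at 4 hr (background 37.0%) and 4 were higher (background 41.6%), and at 24 hr 7 were higher (background 32.9%) and none was lower by limma at an adjusted p below 0.05, where 37.0% of all probes were, and none of the 9 was lower at an unadjusted p below 0.05 either.

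**Figure D1:**
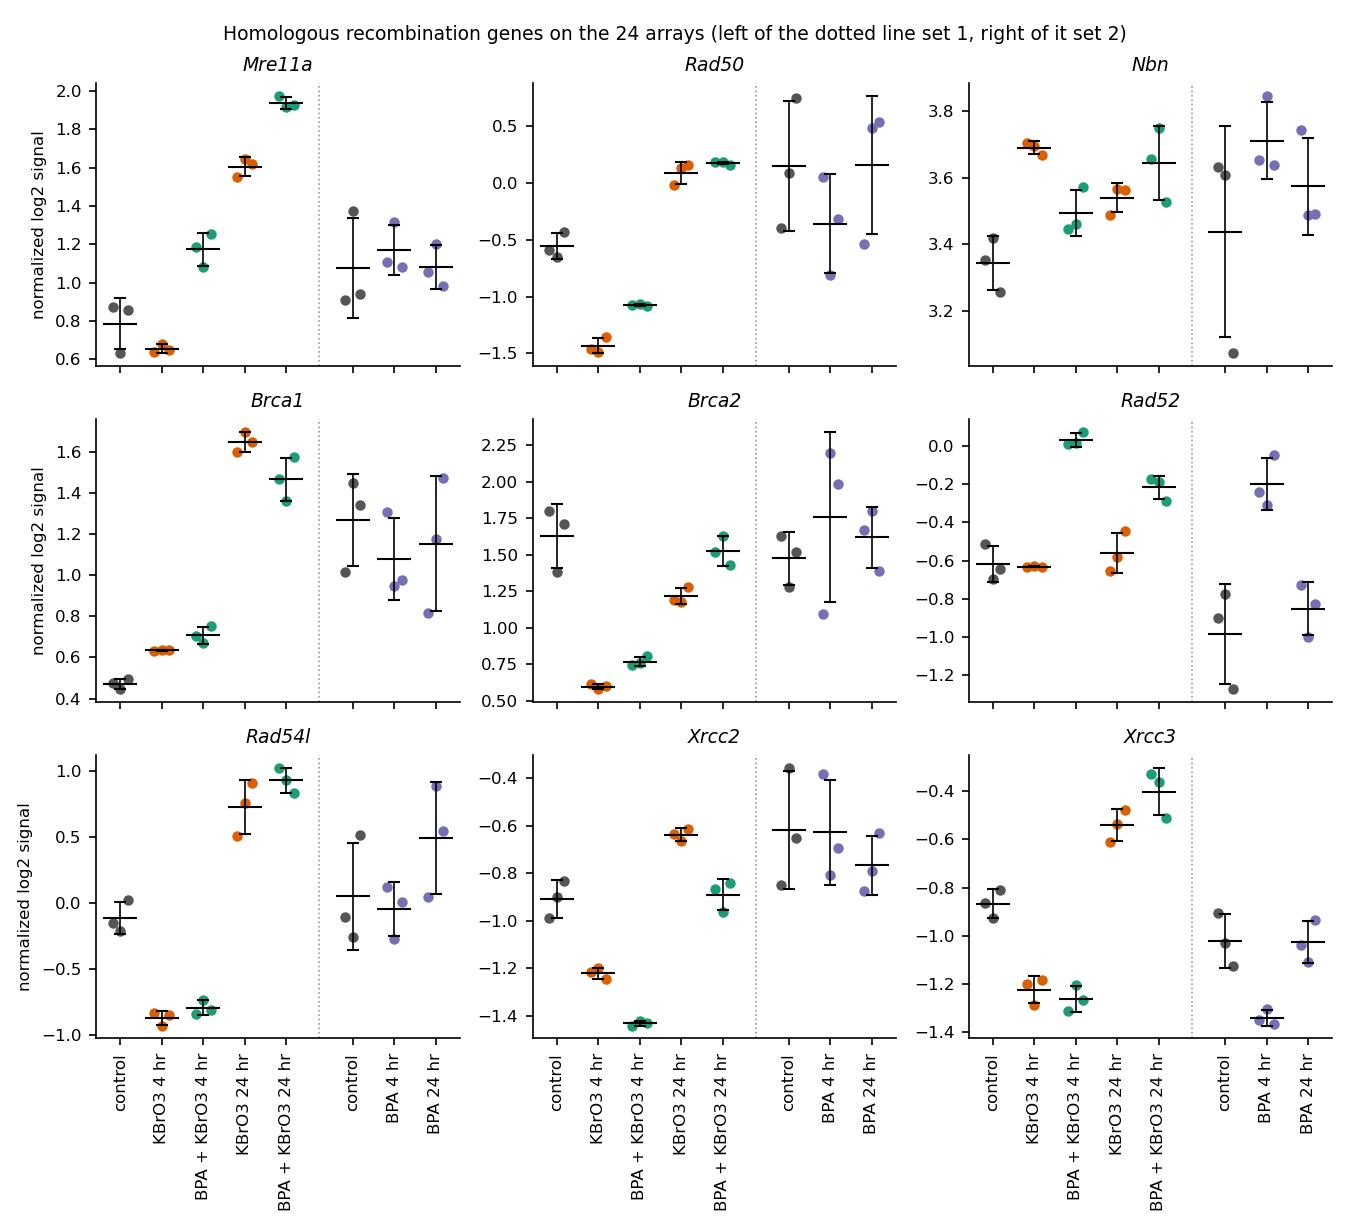
Normalized log2 signal (vertical axis) of the representative probe of each of the 9 genes on every array, by group (horizontal axis), with the first set left of the dotted line and the second right of it; points are arrays, the wide bar is the mean and the error bar the SD (n = 3). After KBrO3, Rad50, Rad54l and Xrcc3 sit below the controls of their set at 4 hr and above those at 24 hr, and Rad52 reads 0.0086 to 0.074 at BPA + KBrO3 4 hr against −0.69 to −0.51 in those controls.

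Under the stricter threshold of the study's methods, a Bonferroni p below 0.01 and a change over 1.5-fold, 2 of the 9 genes passed for KBrO3 4 hr (Rad50 and Brca2), against 28.8% of all probes, and 1 for BPA + KBrO3 4 hr (Rad52), against 32.6%. At 24 hr 3 passed for KBrO3 (Mre11a, Rad50 and Brca1), against 16.8%, and 4 for BPA + KBrO3 (those 3 and Rad54l), against 20.8%.

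Of the MRN genes, Rad50, the ATPase that tethers break ends, moved in opposite directions at the 2 times. Its normalized log2 signal was −0.58, −0.65 and −0.43 in the controls, −1.46, −1.48 and −1.36 at KBrO3 4 hr and −0.018, 0.14 and 0.16 at KBrO3 24 hr. All 3 arrays at 4 hr lay below the controls and all 3 at 24 hr above them. The difference from control was −0.88 ± 0.062 at 4 hr, 1.84-fold lower (adjusted p = 5.28e-08), and 0.65 ± 0.062 at 24 hr, 1.57-fold higher (adjusted p = 1.61e-06). Against the 1 control array on its own slide, Rad50 at KBrO3 4 hr differed by −1.004. With BPA the arrays read −1.07, −1.07 and −1.08 at 4 hr and 0.18, 0.18 and 0.16 at 24 hr, so that the drop was shallower and the rise of like size (−0.52 ± 0.062 and 0.73 ± 0.062 against control, adjusted p = 6.89e-06 and 4.30e-07).

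Mre11a, the nuclease of the complex, did not pass at KBrO3 4 hr and rose at 24 hr. Controls read 0.87, 0.63 and 0.85, KBrO3 4 hr 0.64, 0.68 and 0.65 and KBrO3 24 hr 1.55, 1.65 and 1.62. The 4 hr arrays overlapped the controls, with a difference of −0.13 ± 0.064 (adjusted p = 0.0886). Without control replicate 2, the lowest of the 3, it was −0.21 with an adjusted p of 0.00474, and under quantile normalization −0.18 with an adjusted p of 0.021. At 24 hr Mre11a was 1.77-fold higher (0.82 ± 0.064, adjusted p = 2.75e-07). Under co-exposure it was already higher at 4 hr, with arrays at 1.18, 1.08 and 1.25 (0.39 ± 0.064, adjusted p = 1.31e-04), and reached 1.97, 1.92 and 1.93 at 24 hr, 2.22-fold above control (1.15 ± 0.064, adjusted p = 9.26e-09), the group with its highest signals.

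Nbn, the subunit that recruits the ATM kinase, rose at both times and by little. Its controls read 3.35, 3.42 and 3.26, KBrO3 4 hr 3.71, 3.70 and 3.67 and KBrO3 24 hr 3.49, 3.57 and 3.56, so that neither treated group overlapped the controls. It was 1.27-fold higher at 4 hr (0.35 ± 0.061, adjusted p = 2.41e-04) and 1.15-fold higher at 24 hr (0.20 ± 0.061, adjusted p = 0.0136). The 4 hr call was lost under quantile normalization (0.10, adjusted p = 0.0753), and the 24 hr call without control replicate 3 (0.15, adjusted p = 0.0598) and with slide as a random block (0.17, adjusted p = 0.0954). Co-exposed arrays read 3.45, 3.46 and 3.57 at 4 hr and 3.65, 3.75 and 3.53 at 24 hr. The 4 hr difference of 0.15 ± 0.061 (adjusted p = 0.0395) did not hold under all settings. Its adjusted p was 0.0506 to 0.15, at log2 differences of 0.11 to 0.17, when control replicate 1 or 3, any KBrO3 4 hr array or co-exposed 4 hr replicate 2 or 3 was left out, and the difference turned to −0.012 under quantile normalization (adjusted p = 0.83). The 24 hr difference was 0.30 ± 0.061 (adjusted p = 8.25e-04).

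The mediators Brca1 and Brca2 moved in opposite directions after KBrO3. Brca1, a ubiquitin ligase that promotes end resection, read 0.47, 0.44 and 0.50 in the controls, 0.63, 0.63 and 0.64 at KBrO3 4 hr and 1.60, 1.70 and 1.65 at KBrO3 24 hr. The 4 hr step was small (0.16 ± 0.051, adjusted p = 0.0118) and missed the threshold under quantile normalization (0.10, adjusted p = 0.106), median scaling (0.16, adjusted p = 0.118) and normexp correction (0.21, adjusted p = 0.0671). At 24 hr it was the gene with the highest fold change of the 9 after KBrO3 alone, 2.26-fold (1.18 ± 0.051, adjusted p = 1.37e-09). Co-exposed cells read 0.70, 0.67 and 0.75 at 4 hr (0.24 ± 0.051, adjusted p = 9.72e-04, but 0.094 and adjusted p = 0.345 with median scaling) and 1.47, 1.36 and 1.57 at 24 hr, 1.99-fold above control (1.00 ± 0.051, adjusted p = 3.94e-09). Its second probe, A_52_P18267, gave 0.27 and 1.25 for KBrO3 at the 2 times and 0.18 and 0.92 for co-exposure, with the same calls except at BPA + KBrO3 4 hr (adjusted p = 0.0679).

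Brca2, a mediator of strand exchange, fell the most of the 9 at 4 hr and stayed below control at 24 hr. Controls read 1.80, 1.38 and 1.71, KBrO3 4 hr 0.61, 0.58 and 0.60 and KBrO3 24 hr 1.19, 1.17 and 1.28. It was 2.05-fold lower at 4 hr (−1.03 ± 0.090, adjusted p = 4.09e-07), and −1.12 against the control array of the same slide. At 24 hr the deficit had narrowed to −0.42 ± 0.090 (adjusted p = 0.00141). Co-exposed arrays read 0.74, 0.76 and 0.80 at 4 hr (−0.86 ± 0.090, adjusted p = 2.04e-06) and 1.52, 1.63 and 1.43 at 24 hr, where they overlapped the controls (−0.10 ± 0.090, adjusted p = 0.324). Without control replicate 2, whose 1.38 was the lowest of the 3, the last difference was −0.23 and passed (adjusted p = 0.0064). The second probe, A_52_P513394, fell alike at 4 hr (−1.002 and −0.87 without and with BPA) but read 0.10 ± 0.17 for KBrO3 24 hr (adjusted p = 0.614), so that the 24 hr call rests on the brighter probe. That call was also lost with median scaling (−0.27, adjusted p = 0.0513) and normexp correction (−0.20, adjusted p = 0.291).

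Rad52, the strand-annealing protein, did not pass the test after KBrO3 alone at either time. Its signal was −0.51, −0.69 and −0.64 in the controls, −0.64, −0.63 and −0.63 at KBrO3 4 hr and −0.65, −0.58 and −0.45 at KBrO3 24 hr, with overlapping arrays throughout. The 95% intervals of the differences were −0.15 to 0.12 at 4 hr and −0.075 to 0.19 at 24 hr. When BPA was present the arrays rose to 0.0086, 0.015 and 0.074 at 4 hr, 1.57-fold above control (0.65 ± 0.060, adjusted p = 6.60e-07), and to −0.17, −0.19 and −0.29 at 24 hr (0.40 ± 0.060, adjusted p = 7.37e-05). The latter missed the threshold under normexp correction (0.22, adjusted p = 0.0712). The second Rad52 probe, A_52_P113591, made the same calls, at 0.66 and 0.47 for co-exposure.

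Rad54l, a motor protein of the SWI/SNF family that aids strand invasion, had the widest span of the 9 between the 2 times. Controls read −0.15, −0.21 and 0.021, KBrO3 4 hr −0.83, −0.93 and −0.85 and KBrO3 24 hr 0.51, 0.76 and 0.91. It was 1.69-fold lower at 4 hr (−0.75 ± 0.094, adjusted p = 1.22e-05) and 1.79-fold higher at 24 hr (0.84 ± 0.094, adjusted p = 6.80e-06). The co-exposed arrays followed the same course, −0.84, −0.73 and −0.81 at 4 hr and 1.02, 0.93 and 0.83 at 24 hr (−0.68 ± 0.094 and 1.04 ± 0.094, adjusted p = 2.92e-05 and 8.10e-07).

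Xrcc2 and Xrcc3, which assist strand exchange, had smaller differences. Xrcc3 read −0.86, −0.93 and −0.81 in the controls, −1.20, −1.29 and −1.18 at KBrO3 4 hr and −0.61, −0.54 and −0.48 at KBrO3 24 hr, below and then above all controls (−0.36 ± 0.059 and 0.33 ± 0.059, adjusted p = 1.39e-04 and 3.59e-04). With BPA its arrays were at −1.31, −1.21 and −1.27 and then −0.33, −0.36 and −0.51 (−0.39 ± 0.059 and 0.46 ± 0.059, adjusted p = 5.30e-05 and 1.64e-05). Both 24 hr calls of Xrcc3 were lost under normexp correction (0.093 and 0.21, adjusted p = 0.435 and 0.0856), and the array holds a single probe for it. The representative probe of Xrcc2 gave −0.99, −0.90 and −0.83 in the controls, −1.22, −1.20 and −1.25 at KBrO3 4 hr and −0.64, −0.66 and −0.61 at KBrO3 24 hr (−0.31 ± 0.046 and 0.27 ± 0.046, adjusted p = 4.89e-05 and 2.13e-04), although the 24 hr value was −0.028 under normexp correction (adjusted p = 0.854). Under co-exposure it read −1.44, −1.42 and −1.43 at 4 hr, 1.44-fold below control (−0.52 ± 0.046, adjusted p = 3.78e-07), and −0.87, −0.96 and −0.84 at 24 hr, overlapping the controls (0.018 ± 0.046, adjusted p = 0.744, but 0.34 and adjusted p = 0.00158 with median scaling).

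**Figure D2:**
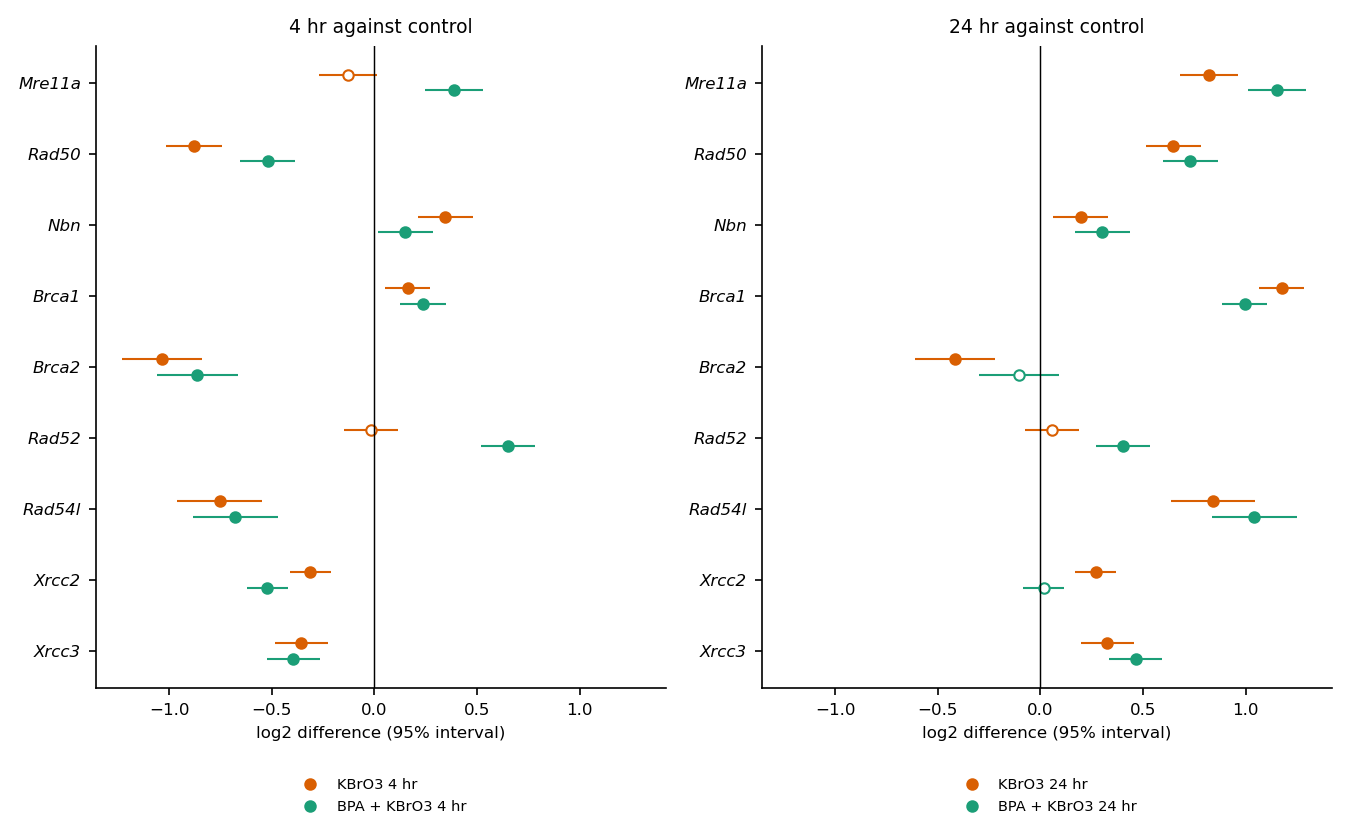
Log2 difference from the controls of the 15-array set (horizontal axis, with 95% interval) for the 9 genes (vertical axis) after KBrO3 alone or with BPA, at 4 hr on the left and 24 hr on the right; filled points have an adjusted p below 0.05. At 4 hr the 9 differences after KBrO3 run from −1.03 (Brca2) to 0.35 (Nbn), and at 24 hr from −0.42 (Brca2) to 1.18 (Brca1).

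Probes of one gene did not all give the same result. Of the 21 probes 17 were tested in the set with KBrO3 and 19 in that with BPA alone, and the rest were too dim. Of Xrcc2, the probe A_52_P662752 gave 0.15 and 0.00049 at 4 hr (adjusted p = 0.0853 and 0.995). At 24 hr its differences were 0.11 without BPA (adjusted p = 0.202) and 0.27 with it (adjusted p = 0.00549). The 4 hr calls of Xrcc2 therefore rest on its brightest probe. The dimmest of its 3 tested probes, A_52_P552160 at chr5:24739560-24739619, minus strand, was designed to a separate cDNA clone. It was well above background on 1 of 3 control arrays, on 1 of 3 at KBrO3 4 hr and on all 3 of each other group of the set, and it entered the fit only through those groups. It read −5.27, −5.70 and −5.62 in the controls, −4.66, −5.46 and −5.50 at KBrO3 4 hr and −4.18, −4.05 and −3.11 at BPA + KBrO3 4 hr. Since most of the lower readings are not above background, no difference of this probe from control or from KBrO3 4 hr is read. No test against them is given for it. Values further below that take in those readings are not read as differences of this probe.

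For Mre11a, A_52_P586172 followed the representative probe (0.55, 1.42 and 1.21 for BPA + KBrO3 4 hr, KBrO3 24 hr and BPA + KBrO3 24 hr), while A_52_P47006 stayed within −0.18 and 0.14 of control and passed in none of the 4 comparisons. The second Nbn probe, A_52_P298548, rose in all 4, by 0.43, 0.76, 0.75 and 0.53 for KBrO3 4 hr, BPA + KBrO3 4 hr, KBrO3 24 hr and BPA + KBrO3 24 hr, more than the representative probe each time.

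**Figure D3:**
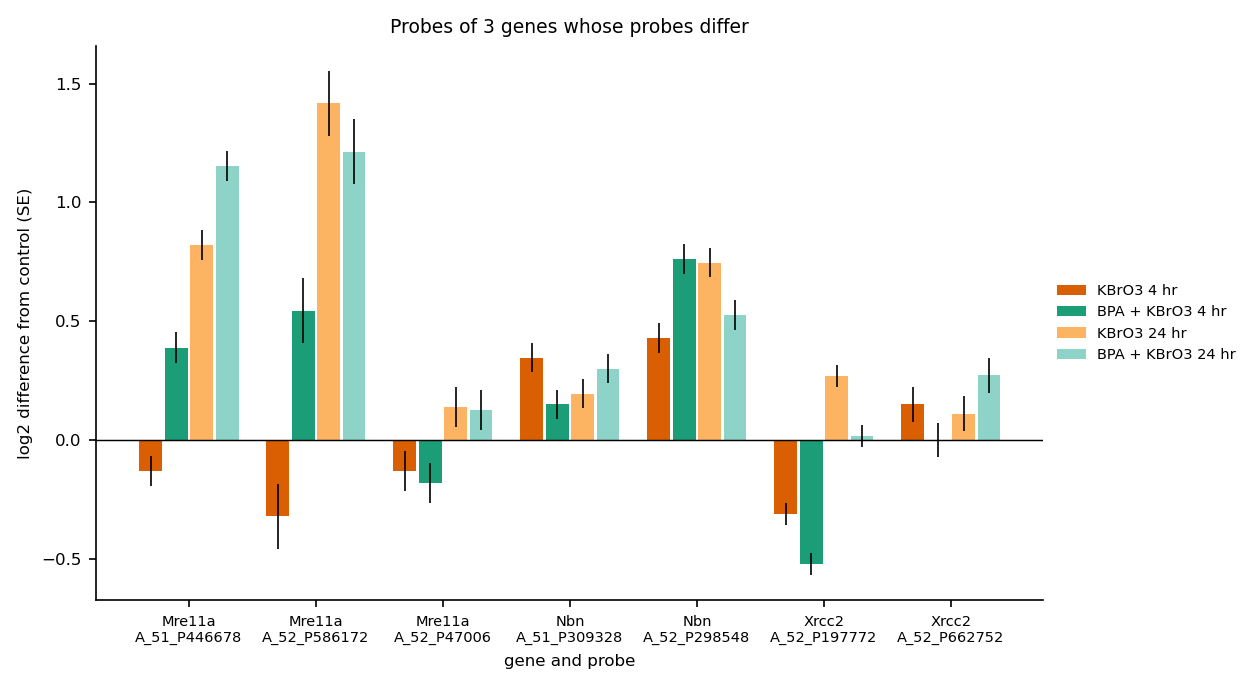
Log2 difference from control (vertical axis, bars from 0 with SE) for the probes of Mre11a, Nbn and Xrcc2 that were well above background on all arrays of the first set (horizontal axis), in the 4 comparisons with control. At KBrO3 24 hr the Mre11a probe A_52_P586172 stands at 1.42 and A_52_P47006 at 0.14.

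The course from 4 hr to 24 hr can be read without the controls. With no control labelled as 24 hr, exposure and time in culture cannot be told apart in it. After KBrO3 alone 7 of the 9 genes were higher at 24 hr than at 4 hr (all but Nbn and Rad52), where 33.0% of all probes were, and Nbn was lower, where 42.3% were. Rad54l and Rad50 rose the most, 3.02-fold (1.59 ± 0.094, adjusted p = 1.20e-08) and 2.88-fold (1.53 ± 0.062, adjusted p = 3.92e-10). Brca1, Mre11a, Xrcc3, Brca2 and Xrcc2 followed with log2 differences of 1.01, 0.95, 0.68, 0.62 and 0.58. In co-exposed cells 8 were higher at 24 hr than at 4 hr (background 32.8%) and Rad52 fell by 0.25 on the log2 scale (background 48.4%), with Rad54l again first at 3.29-fold (1.72 ± 0.094, adjusted p = 5.02e-09). At the stricter threshold 5 genes passed in each course (Mre11a, Rad50, Brca1, Rad54l and Xrcc3 in both), against 26.7% and 30.1% of all probes. The calls of Nbn turned with the probe. Its second probe, A_52_P298548, was higher at 24 hr after KBrO3 alone (0.32 ± 0.062, adjusted p = 5.34e-04) where the representative probe was lower (−0.15 ± 0.061, adjusted p = 0.0411), and lower in co-exposed cells (−0.23 ± 0.062, adjusted p = 0.00394) where the representative probe was higher with overlapping arrays (0.15 ± 0.061, adjusted p = 0.0385). The Xrcc2 probe A_52_P662752 did not pass after KBrO3 alone (−0.039, adjusted p = 0.647), nor A_52_P552160 in co-exposed cells (−0.72, adjusted p = 0.0537). For KBrO3 alone, the slide and the time cannot be told apart. The co-exposed groups of the 2 times shared no slide either, and their slides are linked only through arrays of KBrO3 24 hr.

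What BPA added to KBrO3 was asked by comparing co-exposed cells with cells given KBrO3 alone. At 4 hr Rad52, Mre11a and Rad50 were higher with BPA (3 of 9, where 29.2% of all probes were) and Xrcc2 and Nbn were lower (2 of 9, where 28.6% were). The difference was 0.67 ± 0.060 for Rad52, 1.59-fold (adjusted p = 3.39e-06), 0.52 ± 0.064 for Mre11a (adjusted p = 3.63e-05) and 0.36 ± 0.062 for Rad50 (adjusted p = 4.14e-04), and the arrays of the 2 groups did not overlap for any of the 3. The Rad50 call was lost with median scaling (0.22, adjusted p = 0.073) and normexp correction (0.28, adjusted p = 0.0518). Xrcc2 differed by −0.21 ± 0.046 (adjusted p = 0.00206) and Nbn by −0.20 ± 0.061 (adjusted p = 0.0164), but both calls were lost with slide as a random block (−0.16 and −0.24, adjusted p = 0.107 and 0.0624) and the Nbn probe A_52_P298548 was higher (0.33, adjusted p = 7.36e-04). The Xrcc2 probe A_52_P662752 was at −0.15 (adjusted p = 0.101), and the Mre11a probe A_52_P47006 at −0.050 (adjusted p = 0.629). The Nbn call was lost as well without co-exposed replicate 1 (−0.17, adjusted p = 0.0605) or 2 (−0.18, adjusted p = 0.0542), and under quantile normalization (−0.12, adjusted p = 0.0608). Normexp correction lost the calls of both Xrcc2 and Nbn (−0.19 for each, adjusted p = 0.481 and 0.522). Brca1, Brca2, Rad54l and Xrcc3 did not pass, with 95% intervals of −0.037 to 0.18, −0.025 to 0.37, −0.13 to 0.28 and −0.17 to 0.089. Brca2 passed without control replicate 2 of the set, whose spread enters the fit (0.17, adjusted p = 0.0198). Only Rad52 passed the stricter threshold, against 4.99% of all probes.

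At 24 hr the same contrast left Rad52, Mre11a and Brca2 higher with BPA (background 23.1%) and Xrcc2 and Brca1 lower (background 23.7%). Rad52 was 1.27-fold higher (0.34 ± 0.060, adjusted p = 5.50e-04) and Mre11a 1.26-fold (0.33 ± 0.064, adjusted p = 0.00112). Within the slide that holds 2 arrays of each group, they differed by 0.33 and 0.31. Brca2 differed by 0.31 ± 0.090 (adjusted p = 0.0135), a call that its second probe did not share (−0.11, adjusted p = 0.63) and that was lost without BPA + KBrO3 24 hr replicate 2 (0.26, adjusted p = 0.0577). Xrcc2 differed by −0.25 ± 0.046 (adjusted p = 6.95e-04) and Brca1 by −0.18 ± 0.051 (adjusted p = 0.0113), and within the shared slide by −0.28 and −0.26. With arrays scaled to their median, the Brca1 and Xrcc2 differences were −0.012 and −0.084 (adjusted p = 0.926 and 0.4), while Rad50, Rad54l and Xrcc3 passed (0.25, 0.37 and 0.31, adjusted p = 0.0484, 0.0381 and 0.0208). Xrcc3 passed with slide as a random block (0.15, adjusted p = 0.018) and as a fixed block (0.16, adjusted p = 0.0263). Of the 4 genes that did not pass, 3 did with 1 array left out, Nbn and Xrcc3 without co-exposed replicate 3 (0.16 and 0.19, adjusted p = 0.0315 and 0.0106) and Rad54l without KBrO3 replicate 3 (0.29, adjusted p = 0.0216). The other Mre11a probes, A_52_P586172 and A_52_P47006, gave −0.20 and −0.011 (adjusted p = 0.245 and 0.926), the Xrcc2 probes A_52_P552160 and A_52_P662752 0.076 and 0.16 (adjusted p = 0.865 and 0.0919), and the Nbn probe A_52_P298548 was lower (−0.22, adjusted p = 0.0119). Under normexp correction the Mre11a difference was 0.32 with an adjusted p of 0.12, and averaged over its probes 0.039 with an adjusted p of 0.542. The Brca1, Brca2 and Xrcc2 calls were lost under normexp correction too (adjusted p = 0.334, 0.304 and 0.675). The Brca1 call was also lost with only the arrays compared (adjusted p = 0.117). Those of Brca2 and Xrcc2 were lost with their probes averaged (0.10 and −0.0051, adjusted p = 0.465 and 0.974). None passed the stricter threshold, against 5.80% of all probes, while 6 of the 9 had an unadjusted p below 0.05 in limma.

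Whether BPA's addition acted differently at the 2 times was tested as an interaction. It passed for 4 of the 9 genes, and for 0 of them under normexp correction. Rad52 gained less from BPA at 24 hr than at 4 hr (−0.32 ± 0.085, adjusted p = 0.00766), as did Rad50 (−0.28 ± 0.087, adjusted p = 0.0189), and Brca1 went from 0.074 to −0.18 (interaction −0.25 ± 0.071, adjusted p = 0.0103). These 3 were lower in the interaction, where 28.7% of all probes were. Nbn was the 1 gene that was higher, from −0.20 to 0.10 (0.30 ± 0.086, adjusted p = 0.0117), where 25.5% of all probes were. The second Nbn probe passed in the opposite direction (−0.55, adjusted p = 3.01e-04), and the second Brca1 probe did not pass (−0.24, adjusted p = 0.104). None of the 9 passed the stricter threshold here, against 3.84% of all probes.

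**Figure D4:**
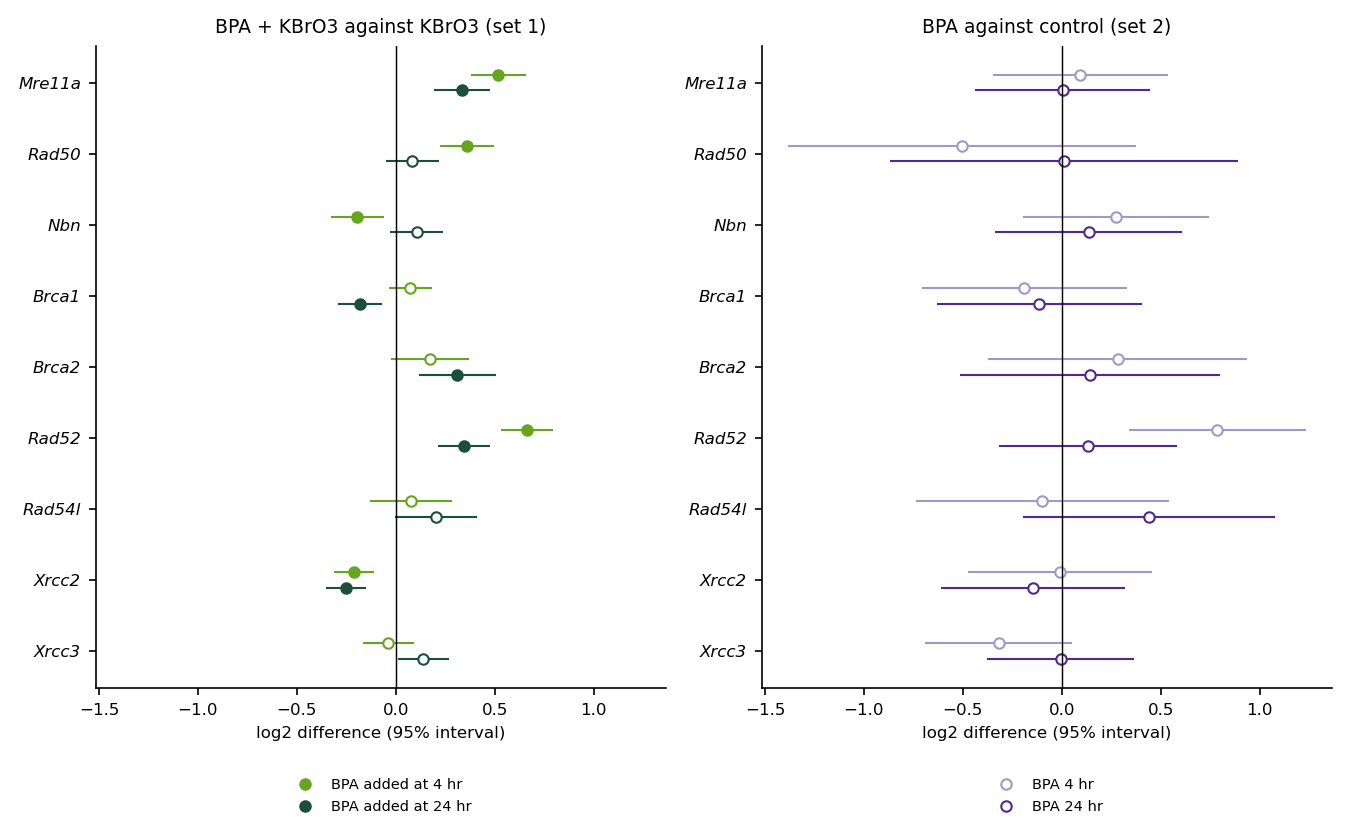
Log2 difference (horizontal axis, with 95% interval) for the 9 genes (vertical axis), on the left BPA + KBrO3 minus KBrO3 in the first set and on the right BPA minus control in the second, at 4 and 24 hr; filled points have an adjusted p below 0.05. Rad52 at 4 hr lies at 0.67 on the left and 0.79 on the right, and all points on the right are open.

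BPA alone was measured in the second set. None of the 9 genes passed the test at 4 hr or at 24 hr by limma, where 4.24% and 3.40% of the 31810 probes tested did; at an unadjusted p below 0.05, 1 did at 4 hr and 0 at 24 hr. The one at 4 hr was Rad52. Its controls read −0.90, −0.77 and −1.28, BPA 4 hr −0.24, −0.31 and −0.046 and BPA 24 hr −0.73, −1.0001 and −0.83, so that all 3 arrays at 4 hr lay above all 3 controls whereas those at 24 hr overlapped the controls. The 4 hr difference was 0.79 ± 0.20, with a 95% interval of 0.34 to 1.23 and an adjusted p of 0.0626, and over the alternatives the adjusted p ran from 0.0511 to 0.976. On the slide that holds 1 control and 2 BPA 4 hr arrays it was 0.76, and the second Rad52 probe gave 0.69 ± 0.21 (adjusted p = 0.117). BPA added to KBrO3 at 4 hr gave 0.67 in the other set, which was extracted with another software version, and the 2 values were not tested against each other.

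For the other 8 genes the BPA intervals were wide. Xrcc3 was lower on all 3 BPA 4 hr arrays (−1.35, −1.30 and −1.37) than on the controls (−0.90, −1.03 and −1.13), by −0.32 ± 0.17 (adjusted p = 0.344). Rad50 spread over −0.39, 0.093 and 0.75 in the controls, 0.058, −0.81 and −0.32 at 4 hr and −0.54, 0.48 and 0.54 at 24 hr, with 95% intervals of −1.39 to 0.37 and −0.87 to 0.89, which leave room for changes as large as those after KBrO3. Mre11a read 0.91, 1.38 and 0.94 in the controls, 1.10, 1.32 and 1.08 at 4 hr and 1.06, 1.20 and 0.98 at 24 hr, with intervals of −0.35 to 0.54 and −0.44 to 0.45. The log2 differences of Nbn, Brca1, Brca2, Rad54l and Xrcc2 were 0.27, −0.19, 0.28, −0.098 and −0.0078 at 4 hr and 0.14, −0.11, 0.14, 0.44 and −0.15 at 24 hr. Between the 2 BPA times none of the 9 passed by limma either, where 3.79% of all probes did, and 1, Rad52, had an unadjusted p below 0.05 (log2 difference −0.65 ± 0.20, adjusted p = 0.109). The SD between arrays of a group was 0.084 to 0.544 over the 9 genes here, against 0.048 to 0.119 in the set with KBrO3.

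The 9 genes were set beside 44 other genes of homologous recombination, of which 43 had a tested probe. After KBrO3 4 hr 14 of 43 were higher and 22 lower than control, with a median difference of −0.15 against −0.31 for the 9 and 0.059 for all probes. For BPA + KBrO3 4 hr 18 of 43 were higher and 18 lower, with medians of −0.059, −0.39 and 0.082 in the same order. By KBrO3 24 hr 26 of 43 were higher and 6 lower (medians 0.34, 0.33 and −0.024), and for BPA + KBrO3 24 hr 28 of 43 were higher and 6 lower (medians 0.39, 0.46 and −0.067). Of all probes, 36.3% were higher and 35.8% lower at KBrO3 4 hr, 41.6% and 37.0% at BPA + KBrO3 4 hr, 32.1% and 34.0% at KBrO3 24 hr, and 32.9% and 37.0% at BPA + KBrO3 24 hr. The 4 hr counts thus read against a background in which calls in each direction were about as common.

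The largest differences of these other genes exceeded those of the 9. Exo1, the exonuclease of long-range resection, rose at 4 hr after KBrO3 (1.42 ± 0.059, adjusted p = 3.82e-10) and with BPA (1.91 ± 0.059, adjusted p = 2.26e-11). Bard1, the partner of BRCA1, had no control array on which it was well above background, so that its rise is a lower bound, set against the lowest signal well above background on each control array or its own signal where that was higher. It was at least 2.32-fold higher at KBrO3 4 hr, 2.18-fold at BPA + KBrO3 4 hr and 4.05-fold at KBrO3 24 hr. At BPA + KBrO3 24 hr, with 2 of the 3 arrays above background, the same figure was 2.39-fold. No test is given for Bard1, since its probe entered the fit only through exposed groups. Parpbp, an inhibitor of recombination, fell at 4 hr after KBrO3 (−2.30 ± 0.080, adjusted p = 8.20e-11) and with BPA (−2.09 ± 0.080, adjusted p = 1.53e-10). Slx1b, for the catalytic subunit of a structure-specific nuclease, fell at 4 hr after KBrO3 (−1.64 ± 0.079, adjusted p = 1.58e-09) and with BPA (−2.34 ± 0.079, adjusted p = 4.96e-11). Abraxas1, the scaffold of a BRCA1 complex, gave −1.68 ± 0.063 (adjusted p = 1.65e-10) and 0.15 ± 0.063 (adjusted p = 0.0434) in the same order. Rmi2, a subunit of the complex that dissolves joint molecules, gave −0.11 ± 0.32 (adjusted p = 0.759) after KBrO3 and 1.37 ± 0.32 (adjusted p = 0.00177) with BPA at 4 hr. The drops at 24 hr were smaller. Sfr1, an accessory factor of recombination, fell after KBrO3 (−0.56 ± 0.058, adjusted p = 3.43e-06) and with BPA (−0.40 ± 0.058, adjusted p = 6.04e-05). Fbh1, a helicase, gave −0.55 ± 0.068 (adjusted p = 1.49e-05) and −0.33 ± 0.068 (adjusted p = 9.00e-04), and Wrn, the Werner helicase, −0.0026 ± 0.099 (adjusted p = 0.983) and −0.50 ± 0.099 (adjusted p = 6.71e-04), without and with BPA. After BPA alone Slx1b was lower at 4 hr (−1.28 ± 0.21, adjusted p = 0.0123).

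**Figure D5:**
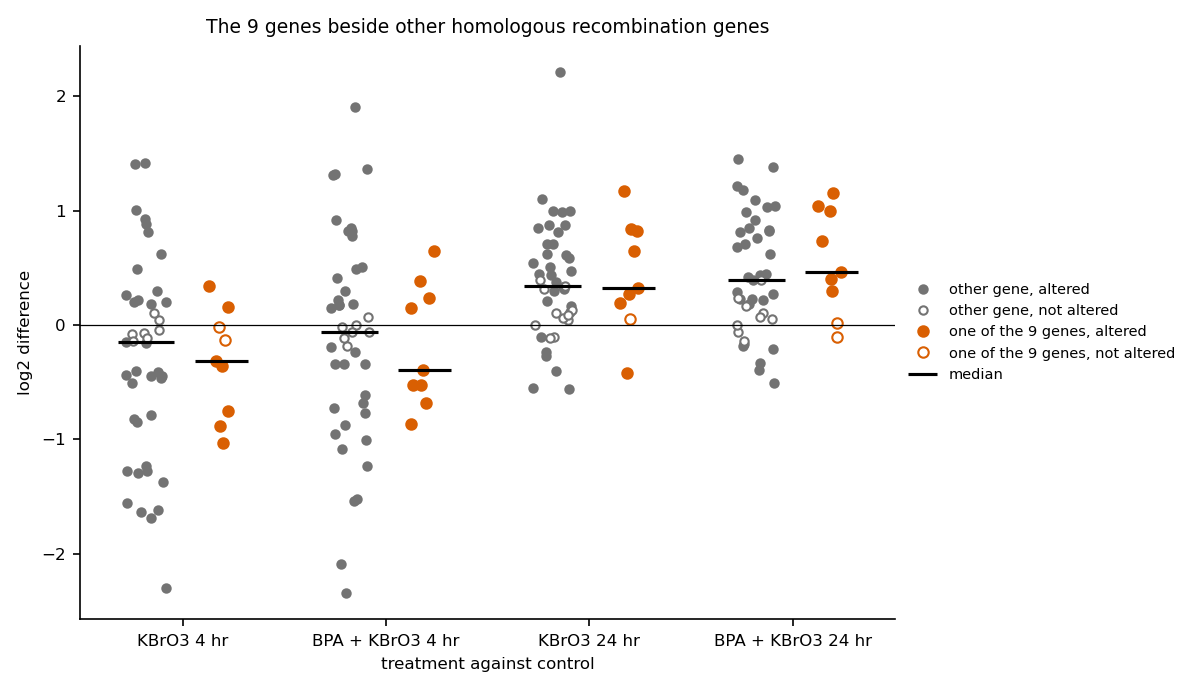
Log2 difference from control (vertical axis) for the 43 other homologous recombination genes with a tested probe (grey) and the 9 genes (orange) in the 4 comparisons of the first set with control (horizontal axis); filled points have an adjusted p below 0.05 and bars are medians. Both medians lie below 0 at 4 hr and above 0 at 24 hr, at −0.15 and −0.31 for KBrO3 4 hr and 0.34 and 0.33 for KBrO3 24 hr.

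Of 13 genes of end joining, the pathway that lacks Ku70 in these cells, 1 was higher and 8 lower at KBrO3 4 hr (median −0.52), and 8 were higher and 1 lower at KBrO3 24 hr (median 0.20). With BPA 3 were higher and 9 lower at 4 hr, and 9 and 1 at 24 hr. Xrcc6 is among them, at −0.67 ± 0.053 (adjusted p = 1.47e-07) and then 0.28 ± 0.053 (adjusted p = 5.64e-04). Of 38 DNA replication genes, whose expression peaks around S phase, 21 were higher and 13 lower at KBrO3 4 hr (median 0.26), and 26 were higher and 6 lower at KBrO3 24 hr (median 0.39). For BPA + KBrO3, 18 replication genes were higher and 12 lower at 4 hr (median 0.13), and 31 and 2 at 24 hr (median 0.51). The shares of all probes higher and lower, beside which both lists stand, were 36.3% and 35.8% at KBrO3 4 hr, 32.1% and 34.0% at KBrO3 24 hr, 41.6% and 37.0% at BPA + KBrO3 4 hr, and 32.9% and 37.0% at BPA + KBrO3 24 hr. The share of cells in each phase was not measured on these arrays, and its part in the 9 genes' values was not tested.

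The starts of the genes were read from RefSeq (GRCm38.p6), whose promoter table holds 6 of the 9 (Brca1, Brca2, Mre11a, Rad52, Rad54l and Xrcc3). In the 250 bases before the start, 12 runs of letters were searched on both strands after the values were known, some of them sharing letters. They were the CCAAT box, the GC box GGGCGG, the E2F-type runs TTTGGCGC, TTTCCCGC, TTTCGCGC, TTTGCCGC, TTCCCGCC and TTTGGCGG, the CHR-type run TTTGAA, the Staf-type run ACTACAA, the CRE with TGACGTCA and TGACGCA as a CRE-type run. The run CCAAT stands in 4 of the 6 (Brca1, Mre11a, Rad54l and Xrcc3), and in 33.8% of the 32851 promoters in the table. GGGCGG stands in 4 (Mre11a, Rad52, Rad54l and Xrcc3), and in 32.7% of all. Of the rest, TTTCCCGC (0.895% of all) and TGACGTCA (1.55% of all) stand in Brca2 alone, and the others, held by 0.256% (TTTCGCGC) to 16% (TTTGAA) of all promoters, in none of the 6. These matches describe a few windows and were not tested against the differences.

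The windows of Rad54l, Mre11a and Brca1, the genes with a table entry and the highest 24 hr differences, are printed 5′ to 3′ on the strand of the gene, with CCAAT and its complement ATTGG in capitals. They lie at chr4:116123691-116123940, minus strand, chr9:14784404-14784653, plus strand and chr11:101551956-101552205, minus strand. The first base of the match lies 50 bases before the start in Rad54l, 73 (as ATTGG) and 38 in Mre11a, and 86 in Brca1.
Rad54l: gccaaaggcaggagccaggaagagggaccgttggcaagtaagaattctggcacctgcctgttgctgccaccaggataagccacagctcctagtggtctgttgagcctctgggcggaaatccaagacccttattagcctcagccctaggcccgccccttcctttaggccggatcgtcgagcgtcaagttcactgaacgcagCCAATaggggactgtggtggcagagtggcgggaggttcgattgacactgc
Mre11a: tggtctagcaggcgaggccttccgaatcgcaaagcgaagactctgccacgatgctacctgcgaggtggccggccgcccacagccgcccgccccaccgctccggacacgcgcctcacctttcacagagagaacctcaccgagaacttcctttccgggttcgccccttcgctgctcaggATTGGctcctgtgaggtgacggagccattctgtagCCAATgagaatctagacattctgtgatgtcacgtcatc
Brca1: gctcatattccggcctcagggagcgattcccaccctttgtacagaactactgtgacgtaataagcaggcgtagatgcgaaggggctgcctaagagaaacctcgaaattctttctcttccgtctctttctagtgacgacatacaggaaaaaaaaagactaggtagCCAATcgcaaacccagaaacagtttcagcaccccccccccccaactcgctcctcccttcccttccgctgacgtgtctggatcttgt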

How the data were processed

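Total RNA from Ku70-/- MEFs was labelled with Cy3 and hybridised to Agilent Whole Mouse Genome 4×44 arrays, 1 sample to an array. The authors deposited scanner output of Agilent Feature Extraction (9.5.3.1 for 15 arrays and 12.0.0.7 for 9, per the file headers; the submitters' processing notes name 12.0), and the values used were the deposited processed signal intensity (background-subtracted by that software, not scaled between arrays). Series table values equalled it for 1041096 of 1041096 spots (relative tolerance 1e-06). Here, log2 intensity minus the array's 75th percentile over 43379 non-control spots was averaged over the spots of a probe, outlier spots left out. A probe was tested in a set if all arrays of some group had it well above background, which left 27310 probes for the 15 arrays and 31810 for the 9, with 57.7% to 68.1% and 76.4% to 79.4% of spots above background.

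limma 3.58.1 (R 4.3.3) was fitted per set with all groups (lmFit, eBayes, two-sided), and p-values were Benjamini-Hochberg adjusted over all probes tested. A gene's representative probe was the one with the highest mean signal over the 24 arrays; its other probes are given where their call differed, without a test where most arrays of a group compared were not above background. From the list of other recombination genes, the text names per comparison with control the 2 altered genes that rose most and the 2 that fell most, and any altered by BPA alone; 2 of the genes so chosen are not reported here. The members and lists were chosen with earlier results of these data known. Symbols were matched by gene name, with RefSeq synonyms and accessions for the lists. Alternatives were quantile normalization, median scaling, normexp correction (offset 50; mean signal for the 15 arrays, median signal for the 9), series table values, no filter or a stricter one on dim probes, only the arrays compared, slide as a random or fixed block, a replicate block, error weights, averaged probes, the threshold of the methods, outlier spots kept, and each array left out. The fit was tested on simulated data.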

Additional observations from a re-analysis of the deposited data

Results flagged for a closer look

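The effect of adding BPA to KBrO3 differed between 4 hr and 24 hr by limma's interaction test for 4 of the 9 genes, each with 3 arrays in every group. Of all probes tested 25.5% were higher and 28.7% lower in this contrast, and under normexp correction 0 of the 9 genes passed. The difference of the log2 differences, 24 hr minus 4 hr, was −0.32 for Rad52, −0.28 for Rad50, −0.25 for Brca1 and 0.30 for Nbn. Within each time, adding BPA passed for Rad52 at both (0.67 at 4 hr and 0.34 at 24 hr), for Rad50 at 4 hr (0.36) but not at 24 hr (0.084, adjusted p = 0.292), for Brca1 at 24 hr (−0.18) but not at 4 hr (0.074, adjusted p = 0.231), and for Nbn at 4 hr (−0.20) but not at 24 hr, where the arrays overlapped (0.10, adjusted p = 0.183).

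The same test passed for 4 other probes of these genes that were well above background on all arrays. It gave −1.07 for the Mre11a probe A_52_P586172 (adjusted p = 7.16e-04), −0.55 for the Nbn probe A_52_P298548 (adjusted p = 3.01e-04), −0.29 for the Rad52 probe A_52_P113591 (adjusted p = 0.0406) and 0.31 for the Xrcc2 probe A_52_P662752 (adjusted p = 0.0243). The 2 Nbn probes passed in opposite directions and the 2 Rad52 probes in the same one. The Xrcc2 probe A_52_P552160 gave −1.35, a value that is not read as a difference, since the probe was well above background on 1 of 3 arrays at KBrO3 4 hr. At 4 hr the 2 treatments lay on separate slides, so that slide and the addition of BPA cannot be told apart there.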

How the results depend on the processing

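Of 72 differences of the 9 genes in 8 comparisons, 45 kept their call, and their direction where called, under all alternatives other than the stricter threshold. With that threshold (Bonferroni p below 0.01 and 1.5-fold) the altered genes of the 9 numbered 2 for KBrO3 4 hr, 1 for BPA + KBrO3 4 hr, 3 for KBrO3 24 hr, 4 for BPA + KBrO3 24 hr, 1 and 0 for BPA added at 4 and 24 hr, 5 and 5 for 24 against 4 hr without and with BPA, and 0 for the interaction. Normexp correction left 5 at KBrO3 24 hr, 2 and 1 for BPA added at 4 and 24 hr, and 0 for the interaction. It moved the median of all probes to −0.46 at KBrO3 4 hr and −0.52 at BPA + KBrO3 24 hr, and median scaling to 0.25 in the latter. Averaging a gene's probes left 2 for BPA added at 24 hr, and slide as a random block 3 for BPA added at 4 hr (correlation within slides 0.63 for the 15 arrays and 0.12 for the 9). Directions reversed for Xrcc2 with its probes averaged (0.051 at KBrO3 4 hr, 0.41 at BPA + KBrO3 4 hr and 0.36 for BPA added at 4 hr, averages that take in A_52_P552160, mostly not above background in the controls and at KBrO3 4 hr, without which the other 2 probes average below 0) and under normexp at KBrO3 24 hr (−0.028), and for Nbn with its probes averaged for BPA added at 4 hr (0.068, where its 2 probes have opposite signs) and under quantile normalization at BPA + KBrO3 4 hr (−0.012). The cause of those under normexp and quantile normalization was not tested. With 1 array left out the counts ran 7 to 8 and 8 to 9 at 4 hr without and with BPA, 7 to 8 and 7 to 8 at 24 hr, 4 to 6 and 4 to 7 for BPA added, 7 to 8 and 8 to 9 for 24 against 4 hr without and with BPA, 4 to 5 for the interaction, and 0 throughout for BPA alone. For the 15 arrays, the deviations of same-numbered arrays were at most weakly correlated (−0.21 to 0.11, 1 of 30 over 0.1). For the 9 arrays this correlation ran from −0.38 to 0.65, with 3 of 9 over 0.1. Whether replicate numbers pair those 9 arrays was not tested. With a replicate block 7 genes were altered at KBrO3 4 hr, 9 at BPA + KBrO3 4 hr, 8 at KBrO3 24 hr and 7 at BPA + KBrO3 24 hr, as without it, and 7 in place of 8 for KBrO3 24 against 4 hr. Slide as a fixed block could not be fitted for the comparisons of BPA + KBrO3 4 hr, KBrO3 24 hr and BPA + KBrO3 24 hr with control, BPA added at 4 hr, KBrO3 24 against 4 hr or the interaction. All 9 genes were well above background on every array, and the number of arrays limits the precision.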
